A study of Mus musculus with 4 samples.

Results

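The subject is the set of mouse genes that differed in the same direction between GRK6-/- and WT cells in both populations measured, hematopoietic stem cells (HSC) and common lymphoid progenitors (CLP). Each population was measured in 1 WT and 1 GRK6-/- library, 4 pooled cDNA libraries in all, with no replicate of any. A gene was eligible when its FPKM, the number of fragments scaled by transcript length and by the mapped fragments of the library, reached 1 in 3 or more of the 4 libraries. Of 12597 genes with a symbol of their own in any library, 8556 were eligible. A member had 2 log2 ratios of FPKM + 1, GRK6-/- over WT, that were of the same sign and both at least 1 in size. This gave 749 members, 8.75% of the eligible genes. The members were chosen on these very values, so their ratios are a description and were not tested.

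All mice were C57BL/6, and the WT and GRK6-/- animals were littermates from crosses of heterozygotes, by the study's methods 8 to 12 weeks old unless stated otherwise. The knockout removes exons 3 to 9 of Grk6 in the whole animal, and no other allele or agent was used in either genotype. HSC were sorted from bone marrow as Lin-c-kit+sca-1+ cells, a gate that also holds multipotent progenitors, and CLP by the same gate with Il-7Ra added. Using 3 to 4 mice, 13 to 15 cells were picked by hand, their cDNA was primed with poly(dT) and amplified cell by cell with 20 and then 10 cycles of PCR, and the products were pooled. A library therefore describes a small number of cells, and differences between the picked cells, the animals and the amplifications cannot be told apart from those between genotypes. In such pools, more cells of a type and more RNA of that type per cell cannot be told apart either.

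GRK6 is a serine/threonine kinase that phosphorylates activated G protein-coupled receptors, after which arrestins bind them and signalling through the G protein is damped. It is expressed in blood and immune cells. HSC give rise to all blood lineages, and CLP mainly to B and T lymphocytes. The comparison asks which genes differ alike between the genotypes in a stem cell and in a lymphoid progenitor population.

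Grk6 itself, Entrez 26385, at chr13:55546695-55562297 in mm9, was higher in both libraries labelled GRK6-/-. Among HSC the FPKM was 42.7 (WT) and 89.4 (GRK6-/-), and among CLP 26.9 (WT) and 57.6 (GRK6-/-). Below, the pair of values for each population always gives WT first and GRK6-/- second. The log2 ratios were 1.05 in HSC and 1.07 in CLP, so Grk6 was among the members with higher values. With a pseudocount of 5 the ratios were 0.99 and 0.97, just under the threshold. This goes against the genotype labels if the deleted exons carry the reads. The files give 1 value per gene, which does not show from which exons the reads came, and reads outside exons 3 to 9 check nothing. The directions given here are those of the libraries labelled GRK6-/- against the libraries labelled WT. No other kinase or arrestin of the GRK list was a member. Of its 10 symbols 7 had a row and 5 were eligible. Adrbk2, another receptor kinase gene, stood at 33.2 and 16.0 in HSC and 7.36 and 16.2 in CLP, which are opposite signs in the 2 populations.

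Most differences were not shared. Of the eligible genes, 1512 (17.7%) were at least 2-fold higher on the FPKM + 1 scale in the library labelled GRK6-/- than in WT in HSC, and 1487 (17.4%) were lower. In CLP, 2079 (24.3%) were higher and 1993 (23.3%) were lower. The higher values coincided in 399 genes (4.66%) and the lower values in 350 genes (4.09%). A larger number, 842 genes (9.84%), passed the threshold in both populations with opposite signs. Of these, 390 were higher in HSC and lower in CLP, and 452 were lower in HSC and higher in CLP. A further 3889 genes passed the threshold in 1 population only. Genes of opposite signs thus outnumbered the 749 members, and over the 8556 eligible genes the log2 ratios of one population followed those of the other with a Pearson coefficient of -0.018 and a Spearman coefficient of -0.025. Both coefficients are across genes of 4 libraries, in which genes are not independent replicates, and no p is given. The term shared is used here only for the sign and size that the rule asks for. When the same rule was turned around, to HSC against CLP in each genotype, 958 genes had the same sign in both genotypes and 906 had opposite signs.

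**Figure D1:**
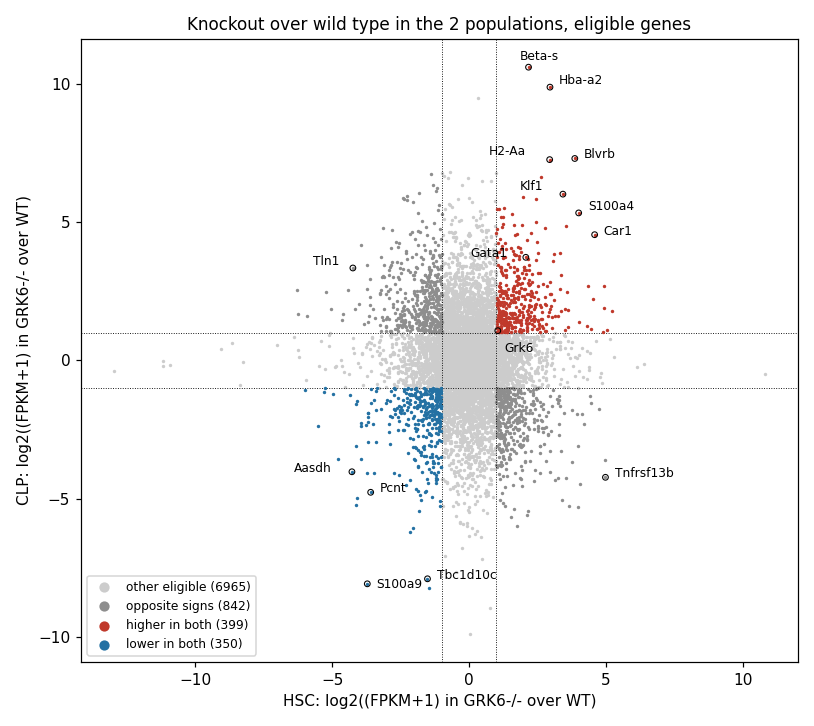
Each point is 1 of the 8556 eligible genes, with the log2 ratio of FPKM + 1, GRK6-/- over WT, in HSC on the horizontal axis and in CLP on the vertical axis, and dotted lines at 1 and -1. The 399 genes higher in both are red, the 350 lower in both are blue, and the 842 of opposite signs, in dark grey, fill the other 2 corners at least as densely.

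Erythroid genes stood out among the members with higher values. Red cell precursors switch on the transcription factors Gata1 and Klf1, take up the hormone signal through Epor, build heme and globin chains, and carry carbonic anhydrases and blood group proteins. Of 17 erythroid markers, 12 had a row of their own in some library and 8 were eligible, while Hba-a1, Hbb-b1, Hbb-b2, Hbb-bs and Hbb-bt had none. Of these 8, 7 were higher in both libraries labelled GRK6-/- (87.5%, against 4.66% of all eligible genes) and none was lower in both. The median log2 ratio of the 8 was 2.57 in HSC and 3.81 in CLP, where all eligible genes had medians of 0.012 and -0.014. This list and its direction were known from earlier results on these libraries, so the count is no independent support.

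Klf1, the erythroid Kruppel-like factor that drives globin and heme genes, had an FPKM of 3.88 and 51.5 in HSC and 0.16 and 73.3 in CLP. Gata1, the master transcription factor of the red cell and platelet lineages, stood at 5.45 and 26.1 in HSC and 0.265 and 15.7 in CLP. Both factors were lowest in WT CLP. With the depth estimated from the smallest FPKM steps, the WT CLP values rest on about 1 fragment for Klf1 and about 2 for Gata1, while GRK6-/- CLP held about 314 fragments of Klf1. Epor, the erythropoietin receptor, was measured at 3.19 and 18.0 in HSC and 0.131 and 7.43 in CLP. Its WT CLP value also rests on about 1 fragment. In each population the library labelled GRK6-/- was the higher one for all 3 genes, with log2 ratios from 2.07 to 6.00.

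Car1 and Car2, carbonic anhydrases abundant in red cells, were already present in WT cells. Car1 was at 24.5 and 612 in HSC and 1.94 and 67.3 in CLP. Car2 was at 299 and 955 in HSC and 134 and 577 in CLP. Car1 had the largest smaller-of-the-2 log2 ratio of all members, 4.59 in HSC and 4.54 in CLP, and unlike Klf1 it was higher in HSC than in CLP in both genotypes. Ermap, an erythroid membrane protein that carries a blood group antigen, was at 3.38 and 42.6 in HSC and 0.0987 and 15.3 in CLP. Hba-a2, adult alpha globin, differed far more between the CLP libraries than between the HSC libraries, with an FPKM of 5.98 and 53.2 in HSC and 17.4 and 17219 in CLP. Its near-identical copy Hba-a1 had no row of its own. The Hba-a2 locus in the files runs over chr11:32176600-32197310, for a longest transcript of 554 bases. The value may therefore hold reads of both copies and is uncertain as that of 1 gene.

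The remaining eligible erythroid marker, Tfrc, the transferrin receptor through which cells take up iron, was at 7.22 and 21.6 in HSC and 45.6 and 61.1 in CLP and did not reach the threshold in CLP. Alas2, the erythroid first enzyme of heme synthesis, was not eligible, at 0.56 and 2.54 in HSC and no row and 128 in CLP. Slc4a1, the anion exchanger of the red cell membrane, was near 0 or without a row in 3 libraries and at 50.9 in GRK6-/- CLP. Rhag, of the Rh complex, had no row in either WT library and was at 17.6 in GRK6-/- HSC and 7.48 in GRK6-/- CLP. The summed level of the whole list was 354 and 1809 in HSC and 200 and 18261 in CLP. The list marks another cell type than either gate is meant to hold, and the part of picked erythroid cells in the result was not tested.

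The start regions of 4 of these genes are shown because all 4 hold the letters that GATA factors are known to bind, and Gata1 is itself a member. Of the 7 called erythroid genes 5 had an entry in the RefSeq promoter table of GRCm38.p6, and AGATAA or TGATAA, searched on both strands in the 250 bases before the start, was found in 4 of the 5. Gata1 itself held neither. Over all 27025 genes of the table the share was 18.8%. It was 10.8% of the 6198 eligible genes with an entry, 11.8% of 287 members with higher values and 12.9% of 248 members with lower values. The larger share thus belongs to these few genes and not to the members at large, and a match is a description of letters, not a binding site. Each line gives 100 bases with the match in the middle, taken from the 250 bases before the start. They run 5′ to 3′ on the strand of the gene, and none of the lines ends at the start itself. The match is in capitals (TTATCA and TTATCT are the 2 motifs read on the other strand). Its first base lies 186 bases before the start in Hba-a2, 80 in Klf1, 54 in Epor and 67 in Ermap. Hba-a2 is chr11:32296259-32296358 on the plus strand, Klf1 chr8:84901855-84901954 on the plus strand, Epor chr9:21963578-21963677 on the minus strand and Ermap chr4:119190010-119190109 on the minus strand.
Hba-a2: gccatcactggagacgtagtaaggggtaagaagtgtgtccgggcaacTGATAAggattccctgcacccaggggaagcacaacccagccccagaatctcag
Klf1: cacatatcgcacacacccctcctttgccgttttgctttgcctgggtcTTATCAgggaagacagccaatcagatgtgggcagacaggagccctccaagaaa
Epor: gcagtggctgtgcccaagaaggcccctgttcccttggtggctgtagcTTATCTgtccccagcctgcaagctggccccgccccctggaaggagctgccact
Ermap: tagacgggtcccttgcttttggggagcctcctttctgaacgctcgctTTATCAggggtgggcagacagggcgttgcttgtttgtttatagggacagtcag

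**Figure D2:**
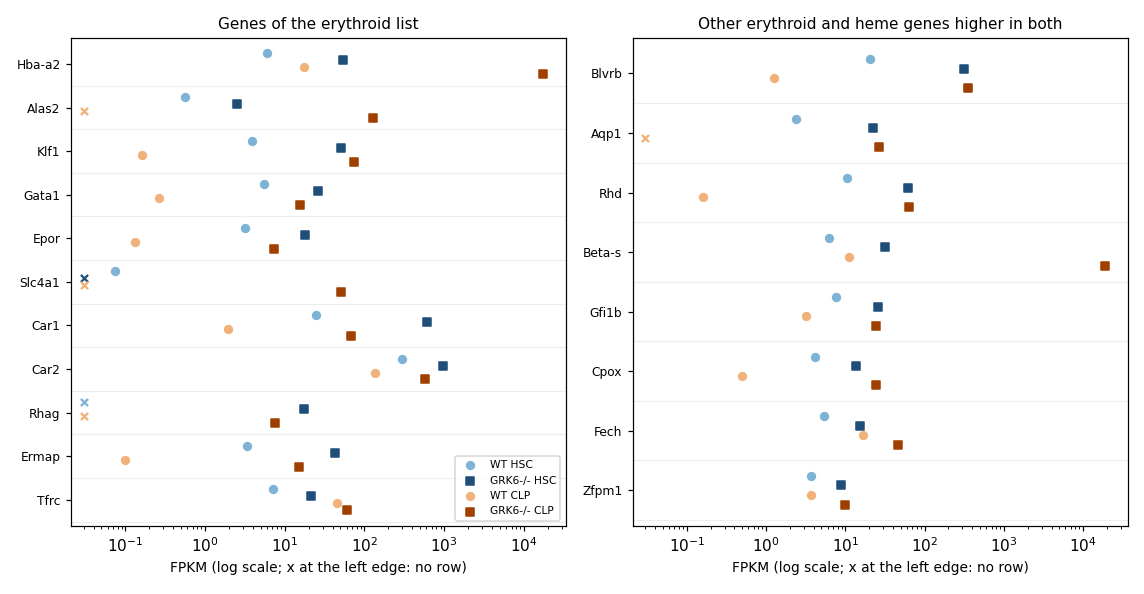
FPKM on a log axis for each of the 4 libraries, with circles for WT, squares for GRK6-/-, blue for HSC and orange for CLP, and a cross at the left edge where a gene has no row. Left, erythroid markers with a row, where the square lies to the right of the circle or cross in both populations for all but Slc4a1. Right, other red cell and heme genes among the members.

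Beyond the list, other members are known from red cells, and these were picked out after their values were seen. Beta-s, a beta globin annotated as hemoglobin subunit beta-1-like, had the highest mean level of all members. Its FPKM was 6.24 and 31.7 in HSC and 11.1 and 18659 in CLP, and like that of Hba-a2 its value may hold reads of near-identical copies. Blvrb, biliverdin reductase B, which is abundant in red cells, was at 20.6 and 313 in HSC and 1.27 and 354 in CLP. Rhd, the Rh blood group protein, was at 10.6 and 61.4 in HSC and 0.162 and 64.2 in CLP, and Aqp1, the red cell water channel, at 2.42 and 22.4 in HSC and no row and 26.8 in CLP. The 2 libraries labelled GRK6-/- were close to each other in Blvrb, Rhd and Aqp1, whereas for the globins GRK6-/- CLP stood alone. Gfi1b, a transcriptional repressor needed for red cells and platelets, was at 7.66 and 25.8 in HSC and 3.22 and 24.7 in CLP. Zfpm1, the cofactor of Gata1 known as FOG-1, was at 3.70 and 8.72 in HSC and 3.70 and 9.87 in CLP.

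Enzymes of heme synthesis were among the members with higher values. Of the 12 eligible genes annotated to it, a term chosen after the values were seen, 3 were higher in both populations, among them Fech and Cpox, and none was lower. The 3 are 25.0% of the term, against 4.66% of all eligible genes. Fech, ferrochelatase, the last enzyme of the pathway, was at 5.4 and 15.2 in HSC and 16.7 and 45.9 in CLP, and Cpox, coproporphyrinogen oxidase, at 4.16 and 13.7 in HSC and 0.503 and 24.1 in CLP. Other steps did not pass in both populations. Urod was at 30.9 and 90.9 in HSC and 80.2 and 95.1 in CLP, so it differed in HSC only, and Alas1, the housekeeping first enzyme, was at 74.0 and 59.0 in HSC and 119 and 61.8 in CLP, lower in the library labelled GRK6-/- in each population without reaching the threshold. Alad, an early enzyme of the pathway, was at 42.9 and 82.2 in HSC and 51.2 and 87.9 in CLP, just under the threshold in each population.

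Tal1, Gata2 and Nfe2, factors that red cell precursors share with stem cells, did not pass in both populations with the erythroid markers. They are examples only, and Nfe2 is on no fixed list and was named after its values were seen. The factors Gfi1b and Zfpm1, given above, did pass. Tal1 stood at 33.2 and 19.2 in HSC and 10.5 and 15.0 in CLP. Gata2, which precedes Gata1 in the lineage, was at 62.8 and 35.1 in HSC and 27.6 and 8.89 in CLP, and Nfe2 was at 108 and 76.3 in HSC and 60.7 and 79.1 in CLP. Among 25 eligible genes annotated to erythrocyte differentiation, 4 were higher in both (Fech, Gata1, Klf1 and Zfpm1) and 1 was lower (Dnase2a, the nuclease with which macrophages digest expelled nuclei). These are 16.0% and 4.0%, against 4.66% and 4.09% of all eligible genes, for a term chosen after the values were seen.

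The other members with the largest ratios came from many pathways. S100a4, a calcium-binding protein of motile cells, was at 1.02 and 31.5 in HSC and 2.73 and 149 in CLP. Gna12, an alpha subunit of heterotrimeric G proteins, was at 1.16 and 23.9 in HSC and no row and 27.6 in CLP. It was the one member with higher values among 18 eligible G protein and RGS genes (5.56%, near the 4.66% of all eligible genes). H2-Aa, an MHC class II chain, was at no row and 6.70 in HSC and 1.22 and 336 in CLP. C1galt1c1, the chaperone of the enzyme that extends O-linked sugars, was at 2.97 and 32.8 in HSC and 0.163 and 15.6 in CLP. Bcas3, of an autophagy-linked complex, was at 0.295 and 12.1 in HSC and 5.87 and 57.4 in CLP, and Rabl5, a Rab-like GTPase of the cilium, at 4.77 and 47.6 in HSC and 1.78 and 32.6 in CLP. BC051142, a cDNA gene of chromosome 17, was at no row and 6.82 in HSC and 1.64 and 17.7 in CLP. In each of these 7 genes both libraries labelled GRK6-/- lay above both WT libraries. They were chosen for large ratios on these same values, which makes such a separation likely, so it is no further support.

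Beside the globins and Car2, the members with higher values and the highest mean levels had ratios nearer the threshold. Atpif1, the inhibitor of the mitochondrial ATP synthase, stood at 1097 and 3222 in HSC and 775 and 1721 in CLP, which are log2 ratios of 1.55 and 1.15. Polr2f, a subunit common to the nuclear RNA polymerases, was at 260 and 533 in HSC and 122 and 329 in CLP.

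Receptors and signalling genes among the members with higher values, picked out after their values were seen, included a GPCR. Adrb1, the beta-1 adrenergic receptor, was at 26.6 and 97.8 in HSC and 6.44 and 22.1 in CLP. Adcy6, an adenylate cyclase that such receptors activate, was at 0.718 and 6.54 in HSC and 2.18 and 15.7 in CLP. Insr, the insulin receptor, was at 1.68 and 5.02 in HSC and 8.68 and 89.6 in CLP, and its substrate Irs2 at 1.46 and 5.28 in HSC and 0.45 and 3.20 in CLP. In Adcy6 and Irs2 both libraries labelled GRK6-/- were above both WT libraries, whereas in Adrb1 and Insr the range of one genotype overlapped that of the other across populations. Smad2, which carries TGF-beta and activin signals, was at 3.24 and 12 in HSC and 2.68 and 21.3 in CLP.

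Redox, folate and interferon genes contributed few members. Of 21 eligible redox genes, 2 were higher in both (9.52%, against 4.66% of all eligible genes) and none was lower, so the share rests on 2 genes. Txnrd2, mitochondrial thioredoxin reductase, was at 3.45 and 33.6 in HSC and 14.3 and 54.9 in CLP. Gclm, the modifier subunit of the enzyme that limits glutathione synthesis, was at 17.6 and 302 in HSC and 8.54 and 24.0 in CLP. Its partner Gclc was at 11.8 and 11.9 in HSC and 19.7 and 26.1 in CLP, and the remaining antioxidant enzymes of the list did not pass in both populations. Sod1, cytosolic superoxide dismutase, came near, at 471 and 1048 in HSC and 706 and 1098 in CLP, with log2 ratios of 1.15 and 0.64.

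Of the 16 eligible genes annotated to one-carbon metabolism, another term chosen after seeing the values, 5 were higher in both (31.2%, against 4.66% of all eligible genes) and none was lower. They included Car1 and Car2, which hydrate carbon dioxide and are no folate enzymes. The folate enzymes were Shmt1 at 16.4 and 34.6 in HSC and 9.05 and 19.4 in CLP, Mthfd1 at 19.7 and 52.0 in HSC and 5.63 and 12.8 in CLP, and Mthfd1l at 14.1 and 31.9 in HSC and 5.28 and 18.3 in CLP. Mthfd2 and Shmt2 of the same pathway were not members. Of 13 eligible interferon genes, 1 was higher in both (7.69%, against 4.66% of all eligible genes) and none was lower, so the share rests on 1 gene.

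Members with lower values had no group as coherent as the erythroid markers. The 12 with the largest ratios were far below WT in both populations. Aasdh, named for aminoadipate-semialdehyde dehydrogenase, was at 52.5 and 1.76 in HSC and 62.7 and 2.91 in CLP. Abcc10, a multidrug transporter, was at 33.5 and 1.0 in HSC and 30.4 and no row in CLP, and the uncharacterised 1810024B03Rik at 60.3 and 2.51 in HSC and 36.2 and no row in CLP. Lrrc51 was at 43.8 and 2.37 in HSC and 15.6 and no row in CLP. In these 4 genes both libraries labelled GRK6-/- were far below both WT libraries, which their choice by large ratios on these same values makes likely.

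Pcnt, pericentrin, a scaffold of the centrosome, was at 69.2 and 4.81 in HSC and 41.2 and 0.546 in CLP. Snx14, a sorting nexin, was at 80.5 and 3.70 in HSC and 24.4 and 1.97 in CLP, and Gripap1, an endosomal protein, at 28.7 and 1.71 in HSC and 15.6 and no row in CLP. Lipt2, an enzyme of lipoate synthesis in mitochondria, was at 36.5 and 1.42 in HSC and 10.9 and no row in CLP. Cnrip1, a protein that interacts with the cannabinoid receptor, was at 19.1 and 0.546 in HSC and 32.1 and 3.25 in CLP. Polr1e, a subunit of RNA polymerase I, was at 21.8 and 2.10 in HSC and 14.3 and 0.862 in CLP, and 1200016B10Rik, a RIKEN cDNA with no further name, at 59.4 and 4.67 in HSC and 34.3 and 3.61 in CLP. All 7 had both libraries labelled GRK6-/- below both WT libraries. They too were chosen for large ratios on these same values, so the separation is no further support. S100a9, a calprotectin chain of neutrophils, was at 33.6 and 1.63 in HSC and 269 and no row in CLP. It was the 1 member among 10 eligible myeloid markers (10.0%, against 4.09% of all eligible genes), so the share rests on 1 gene. Its partner S100a8, at 1706 and 106 in HSC and 439 and 371 in CLP, was lower past the threshold in HSC alone.

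**Figure D3:**
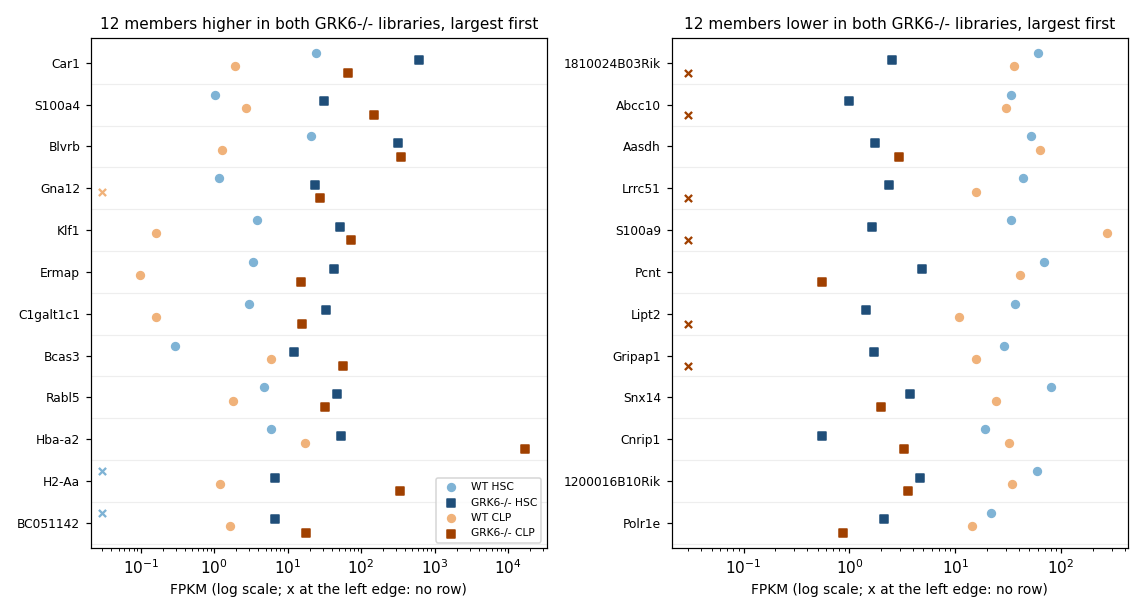
FPKM on a log axis in the 4 libraries for the 12 members with the largest ratios in each direction, with symbols as in the plot of erythroid genes. Left, the squares of the libraries labelled GRK6-/- lie to the right of the circles of WT in each population, Hba-a2 of GRK6-/- CLP reaching 17219, and right, they lie to the left or have no row.

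Among members with lower values, the highest levels belonged to Sfpq, Top2a, Apoa1bp, Anxa1 and Tbc1d10c. Sfpq, a splicing and DNA repair factor, was at 603 and 99.2 in HSC and 458 and 179 in CLP. Top2a, topoisomerase II alpha of dividing cells, was at 166 and 57.1 in HSC and 478 and 36.5 in CLP. It was the only member among 28 eligible cell cycle genes (3.57%, near the 4.09% of all eligible genes lower in both). Of the others, 5 had opposite signs, as did 9.84% of all eligible genes. Mki67, a general marker of cycling cells, was at 22.6 and 19.9 in HSC and 22.3 and 26.2 in CLP. Anxa1, annexin A1, was at 138 and 64.6 in HSC and 313 and 116 in CLP, and Apoa1bp, which repairs damaged NAD(P)H, at 429 and 97.3 in HSC and 98.9 and 42.2 in CLP. Tbc1d10c, an inhibitor of Ras and calcineurin in lymphocytes, was at 247 and 85.5 in HSC and 237 and no row in CLP. For these 5 genes the genotypes did not overlap across populations, but in Anxa1 and Apoa1bp the higher GRK6-/- value lay close to the lower WT value. As members they were chosen on these same values, so the separation is no further support.

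Several receptors of the immune system were among the members with lower values, picked out after seeing them. Gpr65, an acid-sensing GPCR, was at 38.4 and 7.46 in HSC and 16.1 and 2.38 in CLP. Cd244, the 2B4 receptor, was at 16.3 and 0.345 in HSC and 12.1 and 2.47 in CLP, and Il4ra, the interleukin 4 receptor alpha chain, at 7.69 and 2.91 in HSC and 96.2 and 6.44 in CLP. Genes known from cell death lay on both sides, and those named here were also picked out after seeing them. Casp4, an inflammatory caspase, was at 35.8 and 7.35 in HSC and 92.9 and 0.272 in CLP. Mlkl, the effector of necroptosis, was at 54.4 and 15.3 in HSC and 19.4 and 0.894 in CLP, and Bak1, which permeabilises mitochondria, at 9.74 and 1.49 in HSC and 9.60 and 1.87 in CLP. Diablo and Dffa were among the members with higher values.

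Transcription regulators were likewise picked out after their values were seen, from no fixed list. Those with lower values included Srf, the serum response factor, at 21.3 and 3.15 in HSC and 11.4 and 1.13 in CLP. Zeb1, a repressor active in lymphoid cells, was at 3.33 and 0.636 in HSC and 48.2 and 4.73 in CLP. Kdm6b, a histone H3 demethylase, was at 7.12 and 1.45 in HSC and 19.9 and 0.263 in CLP. Polr2a, the largest subunit of RNA polymerase II, was at 120 and 29.7 in HSC and 36.9 and 5.94 in CLP, whereas Polr1a of RNA polymerase I was higher, at 1.97 and 24.5 in HSC and 1.19 and 9.02 in CLP. Of the Mediator subunits, Med24 was lower at 69.3 and 8.94 in HSC and 9.62 and 1.58 in CLP, and Med17 was higher at 3.45 and 26.7 in HSC and 8.52 and 35.5 in CLP. Of genes known from telomeres, Terf1 was lower at 30 and 1.02 in HSC and 28.2 and 4.68 in CLP, and Pot1a was higher at 2.32 and 9.44 in HSC and 0.218 and 35.3 in CLP.

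DNA repair genes gave members at about the share of all eligible genes. Of 22 eligible DNA damage and end joining genes, Xrcc4, the partner of DNA ligase IV in end joining, was the one member (4.55%, against 4.09% of all eligible genes). Its FPKM was 13.7 and 5.79 in HSC and 7.43 and 2.24 in CLP, and with a pseudocount of 5 its log2 ratios were -0.79 and -0.78, under the threshold. Prkdc, which encodes the catalytic subunit of DNA-dependent protein kinase in the same pathway, was at 7.33 and 1.60 in HSC and 2.16 and 2.97 in CLP. Over the wider annotation of 264 eligible DNA damage genes, 9 (3.41%) were higher in both and 10 (3.79%) were lower, near the 4.66% and 4.09% of all eligible genes.

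The markers of other blood cells and of stem cells gave almost no members. None of the 12 eligible stem and progenitor markers, 3 B-lineage, 3 T-lineage, 4 megakaryocyte, 11 immediate early and 6 chemokine and homing receptor genes was one. All eligible genes gave 4.66% higher and 4.09% lower in both. At those shares lists this short give few or no members, so their absence says little about these cell types. Lmo2, a partner of Tal1 in stem cells, was at 414 and 77.2 in HSC and 251 and 323 in CLP. The megakaryocyte genes Pf4, Itga2b and Gp9 were all lower in HSC and higher in CLP, with Itga2b at 47 and 4.20 in HSC and 2.52 and 46.0 in CLP. This lineage is the closest relative of the red cell, and in HSC these 3 genes had the opposite sign to the erythroid markers. The B-lineage markers lacked eligible genes because most had no row in HSC. Their summed level was 156 and 129 in HSC and 1646 and 2378 in CLP, and Il7r, which defines the CLP gate, was at no row and 1.08 in HSC and 120 and 75.1 in CLP, so this marker followed the gate labels. Kit, the receptor of both gates, was at 53.3 and 34.4 in HSC and 26.2 and 81.8 in CLP, and Ly6a, the sca-1 gene, had no row of its own in any library. T-lineage markers summed to 111 and 49.9 in HSC and 96.7 and 79.4 in CLP, with Cd3d and Cd3e having no row in CLP, and myeloid markers to 18609 and 11765 in HSC and 9762 and 8196 in CLP. The part of these cells in the result was not tested.

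Large families of housekeeping genes held few members. Of 85 eligible cytosolic ribosomal protein genes 1 was higher in both (1.18%), and of 83 oxidative phosphorylation subunits 2 were higher (2.41%). Of 37 proteasome subunits none was called. All eligible genes gave 4.66% higher and 4.09% lower in both. These shares fell with expression, as given below, and the families were not set against genes of matched expression. Zfp zinc finger genes, at lower levels, gave 11 higher (6.71%) and 7 lower (4.27%) of 164, close to the background. Solute carriers gave 8 higher (5.88%) and 11 lower (8.09%, against 4.09% of all eligible genes) of 136. The share of members was lower at higher expression. Under a mean FPKM of 10, 5.53% of the eligible genes were higher in both, 5.25% lower in both and 12% of opposite signs, whereas at 100 or more the shares were 2.28%, 1.39% and 3.16%. From 10 to 30 there were 341 genes of opposite signs against 152 higher and 127 lower members. From 30 to 100 there were 126 against 68 and 59, and at 100 or more 25 against 18 and 11, so that genes of opposite signs outnumbered the members of both directions together only below a mean FPKM of 30.

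**Figure D4:**
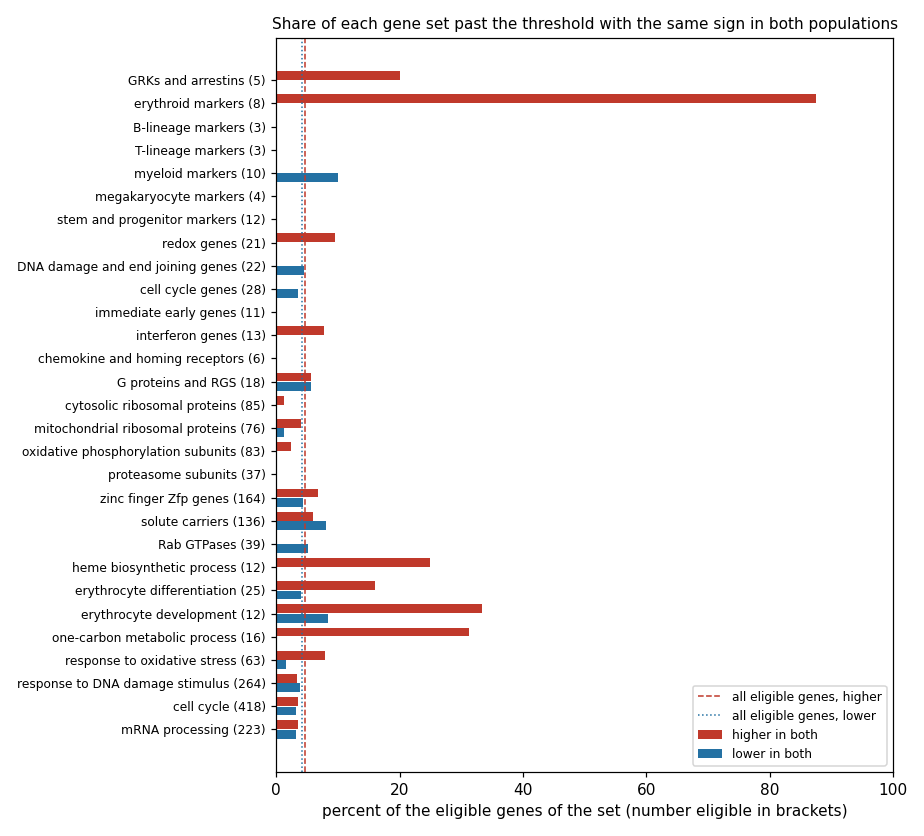
Percent of the eligible genes of each set (number in brackets) that were higher in both (red) or lower in both (blue) libraries labelled GRK6-/-, with dashed and dotted lines at the 4.66% and 4.09% of all eligible genes. The erythroid markers reach 87.5%, and the bottom 8 sets are annotation terms, of which heme, erythrocyte and one-carbon terms were chosen after the values were seen.

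The genes around Grk6 were also described on their own. Within 10 Mb of its start, 80 genes were eligible. Of these, 6 were higher in both (7.5%), 4 were lower in both (5.0%) and 14 had opposite signs (17.5%), where all eligible genes gave 4.66%, 4.09% and 9.84%. Leaving out Grk6 itself, 5 of 79 (6.33%) were higher. The nearest member was Rgs14, a regulator that speeds GTP hydrolysis on G alpha subunits, whose start lies 76 kb from that of Grk6. It was at 6.49 and 1.70 in HSC and 8.23 and 0.469 in CLP, lower beside a higher Grk6, and with a pseudocount of 5 its HSC ratio of -0.78 was under the threshold. Ddx46, a splicing helicase 190 kb away, was at 53.3 and 16.3 in HSC and 26.3 and 8.86 in CLP. Zfp346, an RNA-binding zinc finger protein 340 kb away on the other side, was at 3.94 and 11.1 in HSC and 2.84 and 15.5 in CLP, and its HSC ratio with a pseudocount of 5 was 0.84. The other members in the window were 2210016F16Rik, Naa35, Zfp808 and Zfp934 with higher values and Etohd2 and Slc35d2 with lower values. Between Rgs14 and Ddx46, the genes Pdlim7, Dok3, Ddx41, Fam193b, Tmed9 and Caml were not members. Per chromosome, from 1 to 19 and X, the share of genes higher in both ran from 1.94% on chromosome 10 to 5.77% on X.

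**Figure D5:**
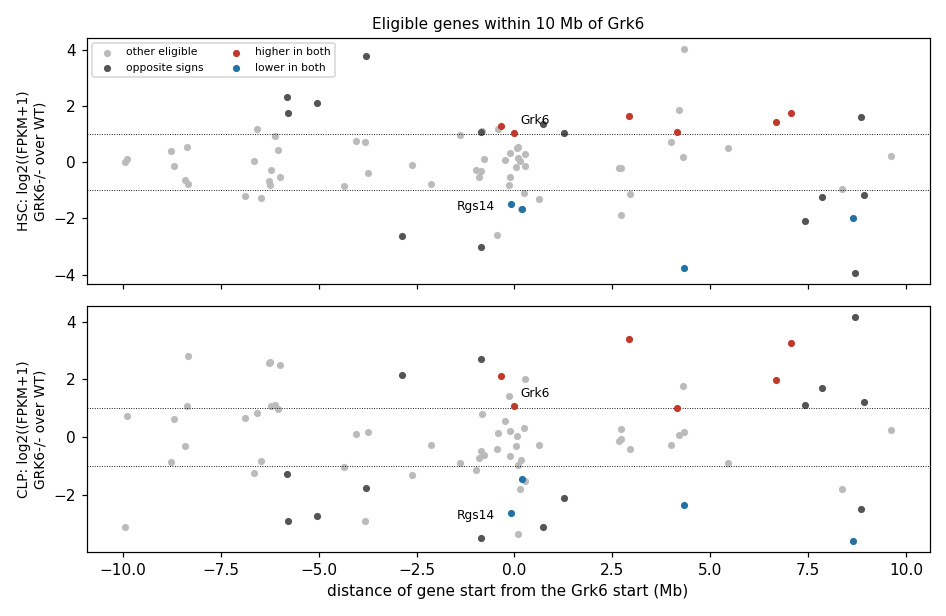
Log2 ratio of FPKM + 1, GRK6-/- over WT, in HSC (top) and CLP (bottom) for the 80 eligible genes within 10 Mb of Grk6, against the distance of their starts in Mb. Rgs14 lies below and Grk6 above the dotted thresholds in both panels, and members are spread over the window among genes of opposite signs.

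The members differed in how firmly they were measured. All 4 libraries reached an FPKM of 1 in 230 of the 399 higher and 192 of the 350 lower members, and 81 and 92 had at least 1 library without a row, which was set to 0. The scale of the FPKM steps gave about 2910000 fragments (WT) and 3810000 fragments (GRK6-/-) in HSC, and 4360000 and 2790000 in CLP, so that an FPKM of 1 on a transcript of 2 kb stood for 5.6 to 8.7 fragments. Counting error of a few fragments is thus large for the low members. After amplification from so few cells, fragments are also not independent molecules. A smaller log2 ratio of at least 2 was reached by 67 higher and 45 lower members, against 125 genes of opposite signs, and of at least 3 by 9 and 10. The median log2 ratio of the higher members was 1.67 in HSC and 1.95 in CLP, and that of the lower members -1.59 and -1.91. The CLP ratio was the larger in size in 59.4% of the higher and 60.0% of the lower members.

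The threshold cut through a continuous range. Just inside it lay Iah1, an esterase, at 26.6 and 54.4 in HSC and 17.5 and 72.1 in CLP, with BC024479 and Naa35. Just outside lay Mrpl50, a mitochondrial ribosomal protein, at 3.93 and 16.5 in HSC and 17.1 and 35.0 in CLP, with Rfx1 and Pitpnm1. On the lower side, Ptger1, a prostaglandin E receptor, was just inside at 61.2 and 12.1 in HSC and 49.5 and 24.1 in CLP, with Cab39l and Atg16l2. Rgs1, an RGS protein of lymphocytes, was just outside at 103 and 14.6 in HSC and 132 and 65.6 in CLP, with Ifit2 and Zranb1.

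Some members also differed between the populations. Of the 749, 213 were at least 2-fold apart between HSC and CLP in the same direction in both genotypes. Among the higher members 60 were higher in HSC and 54 higher in CLP, and among the lower members 62 and 37. The median difference, HSC minus CLP on the log2 scale, was 0.07 for the higher and 0.50 for the lower members, against 0.07 for all eligible genes.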

How the data were processed

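RNA-seq of 4 pooled libraries was read as deposited FPKM values, 1 per gene and library. The authors mapped reads with the Tuxedo suite, and their processing notes name TopHat 1.4.0 and mm9; further settings are not given in the sources used here. Values were summed by symbol, a symbol without a row was set to 0, and rows naming several symbols were left out, 54 to 74 per library. Log2 ratios used a pseudocount of 1, a floor of 1 FPKM in 3 of 4 libraries and a threshold of 1. With 1 library per genotype and population, and with members chosen on both population pairs, no test was run and no p-value or SD is given.

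The named genes were Grk6, the 12 members with the largest ratio and the 5 with the highest mean per direction, members on fixed lists or within 10 Mb of Grk6, the 3 genes on each side of the threshold, and the 3 largest of each opposite orientation. Symbols whose locus differed between libraries were not named by size. Genes picked after seeing values are marked so, and some genes that the rule names are not reported here. The members and lists were chosen with earlier results of these data known. Fixed lists covered GRKs and arrestins, lineage and stem cell markers, redox, DNA damage, cell cycle, immediate early, interferon, homing and G protein genes. Y-linked genes and Xist gave no member.

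Depth was estimated from the smallest FPKM steps of genes with 1 annotated transcript. At these steps lay 73.6% to 82.5% of the low values used. Depth and selection steps were also run on simulated data. Promoter sequence came from RefSeq GRCm38.p6, and gene positions are those of the files in mm9. Alternatives changed the pseudocount, filter, threshold, centring, row choice and handling of conflicting or joint symbols. Python 3.11.15, numpy 2.4.6, pandas 2.3.3 and matplotlib 3.10.9 were used.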

Additional observations from a re-analysis of the deposited data

Results flagged for a closer look

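The 842 genes with opposite signs in HSC and CLP stand out because the 1 ratio that each population gives passed the threshold with opposite signs. With 1 library per group the difference between populations was not tested. The largest of them were higher in HSC and lower in CLP. Tnfrsf13b, the TACI receptor of B cells, had log2 ratios of 4.98 in HSC and -4.23 in CLP, with FPKM of no row (WT) and 30.6 (GRK6-/-) in HSC and 62.4 (WT) and 2.38 (GRK6-/-) in CLP. Ak3, a mitochondrial adenylate kinase, had ratios of 4.04 and -4.47, and Kifc1, a mitotic kinesin, 3.99 and -5.31. Lower in HSC and higher in CLP were Zfp367, a zinc finger gene, with ratios of -3.93 and 4.17, Nit1, of the nitrilase family, with -3.73 and 3.43, and Tln1, the integrin activator talin 1, with -4.24 and 3.33. Tln1 was well measured, at 320 (WT) and 15.9 (GRK6-/-) in HSC and 19.7 (WT) and 207 (GRK6-/-) in CLP.

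A second group concerns 10 members that had no row in 1 library but were named there in a row shared with other symbols, which the selection leaves out. In WT HSC these joint rows had an FPKM of 37.3 for Eif4ebp3, 20.2 for Trim30a and 6.68 for Zfp426. In GRK6-/- HSC they had 83.9 for Med25, 46.3 for Scd2 and 11 for AA465934. In WT CLP they had 36.4 for Tubg1 and 12.7 for Serpinb6a, and in GRK6-/- CLP 1604 for H2-D1 and 5.61 for Cyp2j9. Their value of 0 in that library is therefore a matter of naming, and their membership is uncertain. H2-D1, an MHC class I heavy chain, was at 732 (WT) and 265 (GRK6-/-) in HSC and at 302 in WT CLP.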

How the results depend on the processing

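Opposite signs outnumbered shared signs under all 11 alternatives. With a pseudocount of 5, 189 genes were higher in both, 152 lower in both and 379 opposite, 46 members differed between populations in both genotypes and 5 lay near Grk6. With an FPKM of at least 1 in all 4 libraries these counts were 230, 192, 505, 73 and 4. With at least 10 FPKM in 3 libraries they were 121, 98, 262, 55 and 3, and 1983 genes passed in 1 population only. At a log2 threshold of 2 they were 67, 45, 125, 8 and 1, with 2193 in 1 population. Without a filter 603 genes were higher in both. With rows in all 4 libraries 127 members differed between populations. Other counts stayed within 1.5 times, also with genes named in a joint row of any library left out (8496 eligible genes, 739 members, 836 opposite), a choice made after seeing the data. Of 132 ratios of named genes, 18 fell below the threshold with a pseudocount of 5, centring moved 4 below and 3 above it, and a pseudocount of 0.1 moved 6 above. No ratio changed sign under these settings. Leaving out a library leaves 1 population, so no count of shared genes could be had. The rule itself pairs the genotypes by population. No paired test was run, because the pairs of both populations are what chose the members. The depth, 2790000 to 4360000 fragments, and the small number of cells limit all low values.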
